A study of Mus musculus with 6 samples.

Results

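The 10 genes described here are 5 S100 genes (S100a4, S100a6, S100a10, S100a11 and S100a13), 4 annexin genes (Anxa1, Anxa2, Anxa3 and Anxa5) and Cd44, out of 46078 gene identifiers counted. They were chosen by name, as genes tied to the repair of wounded membranes and to cell migration, with earlier results of these data known. All 10 were found by symbol in both deposited tables. The libraries came from MLE12, a mouse lung epithelial line that descends from lung tumours of mice with SV40 large T antigen under a surfactant protein C promoter. Monolayers of the parental line, which the labels call wild-type, were left unscratched or were scratched with a pipet tip, and Lingo1 KO, Lingo2 KO, Lingo3 KO and TROY KO lines were scratched. All scratched cultures were collected 24 hours later, and each of the 6 groups had 1 library. The labels do not say how the knockouts were made or whether a line grew from a single cell. With 1 library per group, genotype, line and culture cannot be told apart, and no p-value was computed.

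Of the 4 targeted genes, Lingo1 alone had more than 4 counts in any library. Its level, in CPM (counts per 1000000 reads after scaling with TMM factors), was 27.6 CPM in unscratched and 24.5 CPM in scratched parental cells, 57.0 CPM in the library labelled Lingo1 KO, 52.0 CPM in that labelled Lingo2 KO, 51.3 CPM in that labelled Lingo3 KO and 34.7 CPM in that labelled TROY KO. The transcript was thus highest in the library labelled as its own knockout, which goes against a loss of transcript there, although a knockout can leave a transcript in place. Lingo2 had 0 counts in all libraries, Lingo3 1 in total and Tnfrsf19, which encodes TROY, at most 4 in any library, so transcript levels could not check those 3 labels. The libraries are therefore named by their labels in what follows, and every direction given rests on those labels.

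S100 proteins are small calcium sensors of the EF-hand family that work mostly as dimers and change shape to grip partner proteins when calcium rises. Annexins bind acidic membrane lipids in the presence of calcium. When a plasma membrane is torn, calcium flows in, and annexins with their S100 partners gather at the tear and help to draw its edges together. S100A10 joins ANXA2 in a stable complex at the plasma membrane, S100A11 binds ANXA1, and S100A4 binds non-muscle myosin II and is known from motile cells. CD44 is the main cell surface receptor for hyaluronan, a matrix sugar polymer, and is linked to the actin cortex through ezrin, radixin and moesin.

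Promoter windows are shown for the 5 genes on which the results turn. S100a4 and Cd44 were the only members past the size rule given below. S100a11 and Anxa2 stood above the scratched parental level in every KO-labelled library. S100a6 starts 9.11 kb from the S100a4 start, with S100a5 between them. The table of promoter windows, from RefSeq on build GRCm38.p6, held 8 of the 10 members, without S100a10 and Anxa3. Each window runs from 250 bases before to 50 bases after the start. They are chr3:90603520-90603819 on the plus strand for S100a4, chr3:90612644-90612943 on the plus strand for S100a6, chr3:93520246-93520545 on the plus strand for S100a11, chr9:69453433-69453732 on the plus strand for Anxa2 and chr2:102901616-102901915 on the minus strand for Cd44. Capitals mark matches to TGANTCA (the AP-1 motif), GGAATG (the TEAD motif) or TATAAA (the TATA box), searched on both strands.
S100a4: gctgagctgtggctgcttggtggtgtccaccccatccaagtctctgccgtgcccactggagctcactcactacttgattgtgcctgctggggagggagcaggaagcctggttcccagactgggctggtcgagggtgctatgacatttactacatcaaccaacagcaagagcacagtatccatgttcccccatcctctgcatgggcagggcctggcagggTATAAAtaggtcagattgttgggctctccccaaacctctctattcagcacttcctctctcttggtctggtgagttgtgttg
S100a6: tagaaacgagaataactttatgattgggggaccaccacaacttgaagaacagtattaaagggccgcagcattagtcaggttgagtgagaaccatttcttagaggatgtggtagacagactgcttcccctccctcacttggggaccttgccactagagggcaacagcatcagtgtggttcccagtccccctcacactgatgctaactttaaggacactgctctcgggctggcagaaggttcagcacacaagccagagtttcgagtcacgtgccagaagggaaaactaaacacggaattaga
S100a11: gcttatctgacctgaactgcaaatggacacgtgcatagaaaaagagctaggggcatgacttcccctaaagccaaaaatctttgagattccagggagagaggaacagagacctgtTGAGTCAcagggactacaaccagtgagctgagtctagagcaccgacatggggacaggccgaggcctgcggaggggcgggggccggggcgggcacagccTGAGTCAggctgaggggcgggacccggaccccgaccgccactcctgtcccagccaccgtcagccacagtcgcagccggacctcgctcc
Anxa2: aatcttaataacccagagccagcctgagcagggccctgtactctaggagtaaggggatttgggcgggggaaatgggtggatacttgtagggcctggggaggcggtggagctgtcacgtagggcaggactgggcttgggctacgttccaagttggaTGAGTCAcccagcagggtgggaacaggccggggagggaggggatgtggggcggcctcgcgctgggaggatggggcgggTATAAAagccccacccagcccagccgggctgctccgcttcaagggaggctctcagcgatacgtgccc
Cd44: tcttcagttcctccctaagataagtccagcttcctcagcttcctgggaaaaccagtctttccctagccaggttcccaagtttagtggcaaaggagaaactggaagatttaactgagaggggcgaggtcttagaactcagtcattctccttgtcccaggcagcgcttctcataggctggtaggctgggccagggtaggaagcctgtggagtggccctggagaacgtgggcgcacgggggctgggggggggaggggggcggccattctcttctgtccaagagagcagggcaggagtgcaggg

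The AP-1 letters were found in 2 of the 8 member windows, S100a11 with 2 matches and Anxa2 with 1, and in 7.81% of 32851 windows of the same length. In both genes each match read TGAGTCA. The TATA box letters stood in the windows of S100a4, Anxa1 and Anxa2, against 13.6% of all windows, and in S100a4 they began 31 bases before the start. The TEAD letters were found in the Anxa1 window alone among the 8, against 14.7% of all windows. The S100a6 and Cd44 windows held none of these motifs. A match is a run of letters, and binding was not measured.

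Levels of different genes are compared per length, in the RPKM (reads per kilobase of transcript and per 1000000 reads) that the authors deposited. S100a6 stood highest, between 1705 and 2332 RPKM over the 6 libraries, and Anxa3 followed with 753 to 900 RPKM. Then came S100a10 (467 to 617 RPKM), Anxa2 (335 to 500), Anxa1 (337 to 465) and S100a11 (302 to 456), whose ranges overlap from each one to the next. Anxa5 (169 to 220 RPKM) and S100a13 (49.0 to 66.9 RPKM) were lower. Cd44 (8.43 to 21.7 RPKM) and S100a4 (6.63 to 22.4 RPKM) stood lowest, with overlapping ranges. The mean RPKM of S100a6 exceeded that of 99.9% of the genes in the deposited table, and the mean of S100a4 that of 62.8%.

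**Figure D1:**
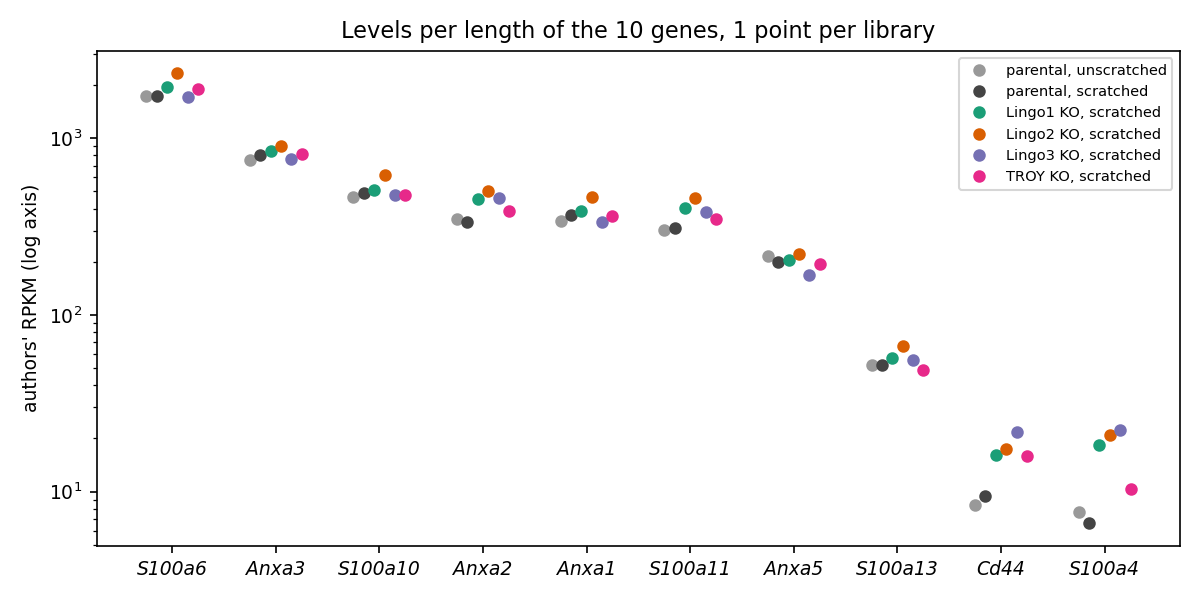
The authors' RPKM of each of the 10 genes on a log axis, with 1 point per library coloured by group and the genes ordered by their mean. S100a6 lies between 1705 and 2332 RPKM, while S100a4 and Cd44 lie between 6.63 and 22.4 RPKM and spread most between libraries.

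This order rests on lengths that the sources used here do not give. Per kilobase of all annotated exons, S100a11 moved from the sixth to the second place, and S100a6 stayed first, with Cd44 and S100a4 last. For S100a4 the level is also uncertain in itself, because 302 of its 584 exonic bases are shared with Gm42674 on the same strand. Gm42674 had 0 counts in all 6 libraries. Whether reads in the shared part were assigned to S100a4 depends on counting settings that are not given, so its level may be understated. Near copies of S100a11 exist as well: 5 processed pseudogenes match its transcript at 90.6% to 98.99% identity, and reads that fit a copy equally well may not have been counted.

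Between the 5 comparisons the changes are given as ratios of scaled counts, and levels of a single gene in CPM. The size rule asked for a 2-fold or larger difference, up or down, with a 95% interval lying wholly beyond 1.5-fold. The intervals cover counting error only. The tested genes were the 12078 that averaged 1 CPM or more over the 6 libraries, and all 10 members were among them. Between the scratched and unscratched parental libraries none of the 10 passed, and 0.0828% of tested genes did. Against the scratched parental library the size rule was passed by 1 member of 10 in the library labelled Lingo1 KO (3.62% of all tested genes), 1 in the library labelled Lingo2 KO (3.5%), 2 in the library labelled Lingo3 KO (7.19%) and none in the library labelled TROY KO (2.24%). The calls were S100a4 in the 3 libraries labelled Lingo KO and Cd44 in the library labelled Lingo3 KO, all higher. No member passed in all 4 KO-labelled libraries, which 0.729% of tested genes did upward and 0.836% downward. The 4 KO comparisons share 1 parental library.

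**Figure D2:**
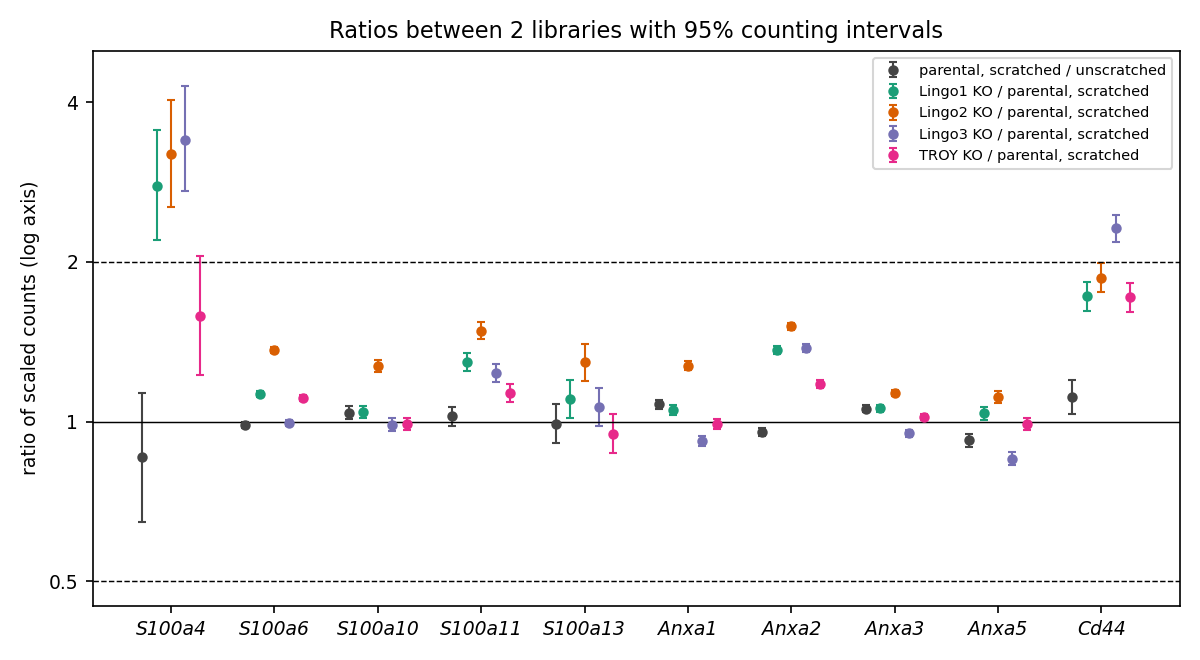
Ratio of scaled counts for each of the 10 genes in the 5 comparisons, on a log axis, with bars for the 95% counting interval and dashed lines at 2-fold either way. S100a4 lies above 2 in the 3 libraries labelled Lingo KO and Cd44 in the library labelled Lingo3 KO, and all other points lie between 0.852 and 1.87.

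S100a4, also called metastasin or fibroblast-specific protein, is best known for binding non-muscle myosin and for its abundance in fibroblasts and metastatic cells. The gene (ENSMUSG00000001020) lies on chromosome 3, 90603771 to 90606045, plus strand, on GRCm38. It was measured at 3.87 CPM in unscratched and 3.32 CPM in scratched parental cells, at 9.24 CPM in the library labelled Lingo1 KO, 10.6 CPM in the library labelled Lingo2 KO, 11.3 CPM in the library labelled Lingo3 KO and 5.25 CPM in the library labelled TROY KO. The counts behind these levels were 111, 101, 256, 300, 344 and 158 reads. Both parental levels were the lowest of the 6, the 3 libraries labelled Lingo KO were the highest, and the library labelled TROY KO lay between.

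The ratio of S100a4 to the scratched parental library was 2.78 (2.20 to 3.54) in the library labelled Lingo1 KO, 3.20 (2.54 to 4.05) in the library labelled Lingo2 KO and 3.40 (2.71 to 4.29) in the library labelled Lingo3 KO. In the library labelled TROY KO the ratio of S100a4 was 1.58 (1.22 to 2.05), short of the size rule. With the scratch it was 0.857 (0.648 to 1.13), an interval that includes 1. The S100a4 ratios in the 3 libraries labelled Lingo KO were higher than those of 99.1%, 99.3% and 98.5% of tested genes. The highest level of S100a4 was 3.40 times its lowest, a range larger than that of 96.8% of tested genes, where the median gene had 1.32. In bulk RNA, more cells with a transcript and more transcript per cell cannot be told apart.

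Pairs of KO-labelled libraries do not involve the parental library. S100a4 was 2.02-fold higher (1.66 to 2.47) in the library labelled Lingo2 KO than in the library labelled TROY KO, a pair in which 0.364% of tested genes passed the size rule. It was 2.15-fold higher (1.77 to 2.61) in the library labelled Lingo3 KO than in the library labelled TROY KO, where 2.61% passed. Between the libraries labelled Lingo1 and TROY KO the ratio was 1.76 (1.44 to 2.16), short of the rule. Among the 3 libraries labelled Lingo KO the S100a4 ratios were 0.819 (0.694 to 0.966) for Lingo1 to Lingo3, an interval below 1, and 0.871 (0.734 to 1.03) for Lingo1 to Lingo2 and 0.941 (0.803 to 1.10) for Lingo2 to Lingo3, whose intervals include 1. No other member passed in any of the 6 pairs, and no member at all in Lingo1 against Lingo2 (0.0166% of tested genes), Lingo1 against Lingo3 (1.65%), Lingo1 against TROY (0.215%) or Lingo2 against Lingo3 (1.61%).

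Cd44 (ENSMUSG00000005087, chromosome 2, 102811141 to 102901665, minus strand) showed another order. Its level was 48.0 CPM in the unscratched and 53.4 CPM in the scratched parental library, 92.0 CPM in the library labelled Lingo1 KO, 99.8 CPM in the library labelled Lingo2 KO, 124 CPM in the library labelled Lingo3 KO and 91.6 CPM in the library labelled TROY KO. All 4 KO-labelled libraries were above both parental libraries, and the library labelled TROY KO, unlike for S100a4, was level with the library labelled Lingo1 KO (ratio of Lingo1 to TROY 1.01, 0.952 to 1.06). Against the scratched parental library Cd44 was 2.31-fold higher (2.18 to 2.45) in the library labelled Lingo3 KO. The ratios in the others were 1.72 (1.62 to 1.83) for Lingo1, 1.87 (1.76 to 1.99) for Lingo2 and 1.71 (1.61 to 1.82) for TROY, all short of 2. With the unscratched parental library as the control, the Lingo2 ratio of Cd44 was 2.08 (1.95 to 2.22) and passed. Against that library 1 member passed in the library labelled Lingo1 KO (3.17% of tested genes), 2 in Lingo2 (2.95%), 2 in Lingo3 (6.85%) and none in TROY (2.25%), and these were S100a4 and Cd44 only.

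With the scratch itself, Cd44 had a ratio of 1.11 (1.03 to 1.196), against a range over the 4 KO-labelled libraries of 1.71 to 2.31. The annotation lists 9 transcripts of Cd44, which carry different sets of variable exons. The counts are per gene, so the standard and the variant forms were not separated here. Esrp1, a splicing regulator of epithelial cells that is known for the inclusion of Cd44 variable exons, was 2.69-fold higher (1.69 to 4.39) in the library labelled Lingo3 KO, from 0.855 to 2.30 CPM, and its ratios in the other 3 KO-labelled libraries lay between 0.786 and 1.18. Esrp1 reached the mean of 1 CPM asked of tested genes only through the library labelled Lingo3 KO, where it was high. Its relative Esrp2 had 443 counts in scratched parental cells and 408 in the library labelled Lingo3 KO, a ratio of 0.919 (0.801 to 1.05).

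**Figure D3:**
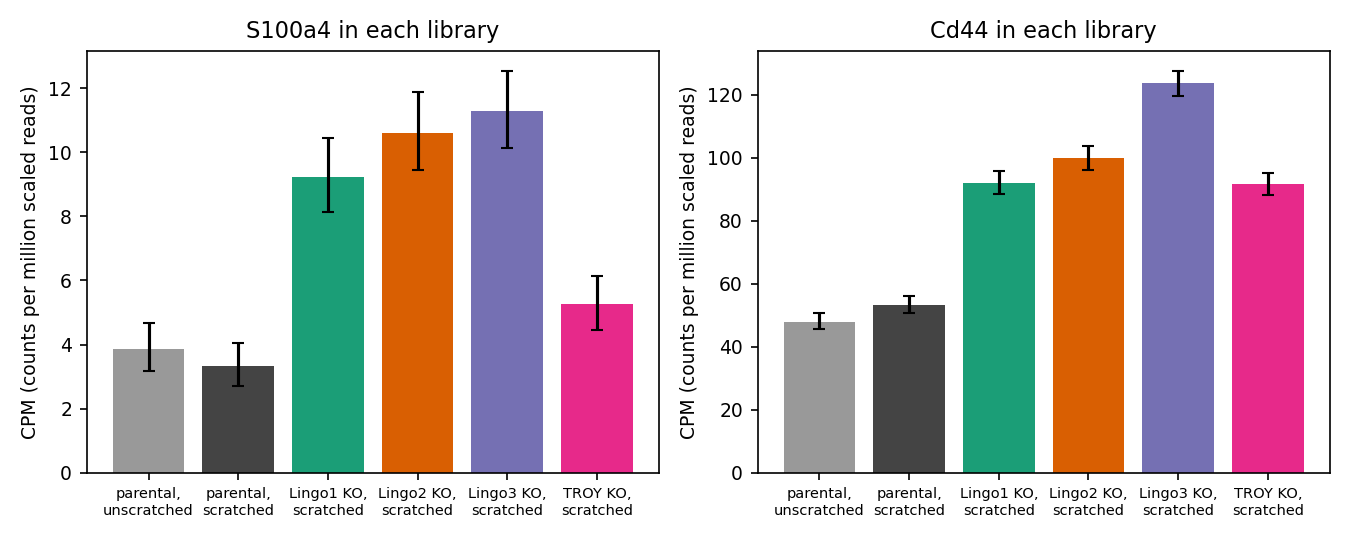
Scaled level of S100a4 (left) and Cd44 (right) in CPM, with 1 bar per library and 95% Poisson intervals for counting error. S100a4 in the library labelled TROY KO, at 5.25 CPM, lies nearer the parental bars than the 3 libraries labelled Lingo KO do, while Cd44 in the library labelled TROY KO, at 91.6 CPM, matches the library labelled Lingo1 KO.

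Since S100a4 and Cd44 are also carried by mesenchymal cells, marker lists of other cell types are set beside them. All 8 fibroblast markers had a count in the libraries labelled Lingo2 and Lingo3 KO, and between 6 and 7 did in the other libraries. Their summed level was 2579 and 2825 CPM in the parental libraries and between 2745 and 3462 CPM in the KO-labelled libraries, most of it Dcn, at 2532 to 3321 CPM. Col1a1 stood at 44.8 and 62.3 CPM in the parental libraries and at 136 to 398 CPM in the KO-labelled libraries, while Col3a1 was at 0 in both parental libraries and had 1, 3, 62 and 3 counts in the libraries labelled Lingo1, Lingo2, Lingo3 and TROY KO. Col1a2 and Lum had at most 3 counts in any library. Pdgfrb, a receptor of fibroblasts and pericytes, had 3 counts in the unscratched and 1 in the scratched parental library and 52, 37, 348 and 13 in the libraries labelled Lingo1, Lingo2, Lingo3 and TROY KO, and it passed the filter on low levels only through the libraries where it was high. Pdgfra stood at 1.61 and 1.71 CPM in the parental libraries and at 2.49, 3.04, 6.69 and 2.63 CPM in the KO-labelled libraries. Col1a1 and Pdgfrb were past the size rule upward in all 4 KO-labelled libraries and Pdgfra in the library labelled Lingo3 KO, out of 4 fibroblast markers that passed the filter, with Dcn in none. Against the unscratched parental library Pdgfrb was not past the rule in the library labelled TROY KO, and the other calls stayed. The median log2 ratio of the 4 markers to the scratched parental library was 1.23, 1.22, 2.56 and 1.16, against 0.01 to 0.02 over all tested genes. Lung epithelial markers, too, were higher in sum in the KO-labelled libraries (3034 to 3375 CPM) than in the parental libraries (2274 and 2486 CPM). All 9 had a count except Cldn18 in the scratched parental library. Nkx2-1 lay between 160 and 205 CPM and Cdh1 between 602 and 992 CPM, while Krt18 had at most 14 counts. Sftpc, the surfactant protein C gene of alveolar type II cells, stood at 16.5 and 18.3 CPM in the parental libraries, 40.7, 42.0 and 81.9 CPM in the libraries labelled Lingo1, Lingo2 and Lingo3 KO and 19.8 CPM in the library labelled TROY KO. Sftpb, another surfactant gene, had 40.1 CPM in unscratched and 35.6 CPM in scratched parental cells and at 164, 144, 164 and 87.0 CPM in the libraries labelled Lingo1, Lingo2, Lingo3 and TROY KO. Of the 7 epithelial markers that passed the filter, Sftpb was past the size rule upward in all 4 KO-labelled libraries, Sftpc in the 3 libraries labelled Lingo KO and Epcam in the libraries labelled Lingo2 and Lingo3 KO. Against the unscratched parental library the Sftpb and Sftpc calls were the same, and Epcam was past the rule in no KO-labelled library. The median log2 ratio of the 7 to the scratched parental library was 0.72, 0.70, 0.71 and 0.57. Of all tested genes, 3.62%, 3.5%, 7.19% and 2.24% passed the size rule in the libraries labelled Lingo1, Lingo2, Lingo3 and TROY KO. Upward in all 4 were 0.729%.

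Leukocyte markers summed to 1.89 to 3.61 CPM, with 2 to 5 of 6 having a count and Adgre1 at 0 in all 6 libraries. Smooth muscle markers summed to 0.314 to 2.001 CPM, with 2 to 4 of 4 detected and Acta2 and Des at 0 in the unscratched parental library and the library labelled TROY KO. Endothelial markers summed to 95.4 and 103 CPM in the parental libraries and 162 to 188 CPM in the KO-labelled libraries, with 4 to 5 of 5 detected. Tek made up most of that sum. Vwf, the other endothelial marker past the filter, went the other way, with 16 counts in the unscratched and 169 in the scratched parental library and 17, 11, 37 and 15 in the libraries labelled Lingo1, Lingo2, Lingo3 and TROY KO. It was past the size rule upward with the scratch and downward in all 4 KO-labelled libraries, which 0.836% of tested genes were. Tek was past the rule upward in the libraries labelled Lingo1 and Lingo3 KO. The Vwf calls all rest on the scratched parental library, through which alone Vwf passed the filter on low levels. Against the unscratched parental library neither Vwf nor Tek was past the rule in any KO-labelled library. Cdh5 had 20 counts in the scratched parental library, 1 in the library labelled Lingo1 KO and 0 elsewhere. The part of any of these lists in the S100a4 and Cd44 ratios was not tested.

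S100a6, or calcyclin, was the most abundant member. The gene (ENSMUSG00000001025) starts 9.11 kb downstream of the S100a4 start, on the same strand of chromosome 3, 90612882 to 90624181. Its level was 1382 CPM in unscratched and 1362 CPM in scratched parental cells, 1535 CPM in the library labelled Lingo1 KO, 1858 CPM in the library labelled Lingo2 KO, 1352 CPM in the library labelled Lingo3 KO and 1510 CPM in the library labelled TROY KO. The library labelled Lingo2 KO was the high library, at a ratio of 1.36 (1.35 to 1.38), and the library labelled Lingo3 KO was level with the parental libraries, at 0.993 (0.980 to 1.01). The RPKM of S100a6 was 261 times that of S100a4 in the scratched parental library, 227 times in the unscratched one and 76.2 times in the library labelled Lingo3 KO.

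S100a11 and Anxa2 shared a pattern of small steps. S100a11 (ENSMUSG00000027907, chromosome 3, 93520488 to 93526287, plus strand), the partner of annexin A1, had 156 CPM in unscratched and 160 CPM in scratched parental cells, then 207, 237, 198 and 181 CPM in the libraries labelled Lingo1, Lingo2, Lingo3 and TROY KO. Its ratio was 1.48 (1.43 to 1.54) in the library labelled Lingo2 KO and 1.13 (1.09 to 1.18) in the library labelled TROY KO, with the other KO-labelled libraries between. Anxa2 (ENSMUSG00000032231, chromosome 9, 69453620 to 69491795, plus strand), which bridges membranes and the actin cortex, stood at 802 and 767 CPM in the unscratched and scratched parental libraries and at 1045, 1160, 1055 and 904 CPM in the libraries labelled Lingo1, Lingo2, Lingo3 and TROY KO. Its ratio was 1.51 (1.49 to 1.54) in the library labelled Lingo2 KO and 1.18 (1.16 to 1.199) in the library labelled TROY KO. For both genes all 4 KO-labelled libraries lay above both parental libraries, and neither gene reached 2-fold in any comparison.

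The S100a11 and Anxa2 windows are those printed above with the TGAGTCA letters. The Cd44 window held no such match, and Cd44 too lay above both parental libraries in all 4 KO-labelled libraries. A part of these letters in the ratios was not tested. Anxa2 shares 98 exonic bases with Gm16144 on the opposite strand, a gene with 6 to 10 counts per library against at least 22987 for Anxa2. S100a10 (ENSMUSG00000041959, chromosome 3, 93555080 to 93564643), the S100 subunit of the ANXA2 complex, did not follow Anxa2. It stood at 324 and 337 CPM in the parental libraries and at 352, 430, 333 and 334 CPM in the libraries labelled Lingo1, Lingo2, Lingo3 and TROY KO. The RPKM of S100a10 over that of Anxa2 was 1.35 in the unscratched and 1.46 in the scratched parental library, against 1.05 in the library labelled Lingo3 KO, 1.12 in Lingo1, 1.23 in TROY and 1.24 in Lingo2. All 4 KO-labelled values of this quotient were below both parental values. The S100a11 over Anxa1 quotient went the other way, from 0.843 in the scratched and 0.888 in the unscratched parental library to between 0.963 and 1.13 in the KO-labelled libraries.

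Anxa1 (ENSMUSG00000024659, chromosome 19, 20373428 to 20390944), an inhibitor of inflammation that is also recruited to torn membranes, was highest in the library labelled Lingo2 KO, at 793 CPM against 622 CPM in the scratched parental library, a ratio of 1.27 (1.25 to 1.299). In the library labelled Lingo3 KO, at 572 CPM, its ratio was 0.920 (0.901 to 0.939). Anxa3 (ENSMUSG00000029484, chromosome 5, 96793339 to 96845966) was the steadiest of the 10. Its highest level was 1.199 times its lowest, and 22.3% of tested genes had a smaller range. Anxa5 (ENSMUSG00000027712, chromosome 3, 36448923 to 36475894), which forms ordered lattices on membranes, ranged from 296 CPM in the library labelled Lingo3 KO to 387 CPM in the library labelled Lingo2 KO, and its Lingo3 ratio, 0.852 (0.828 to 0.876), was the lowest of any member in the KO-labelled libraries. S100a13 (ENSMUSG00000042312, chromosome 3, 90514435 to 90524581), known for its part in the release of FGF1 from cells, lay between 35.7 and 48.7 CPM, again with the library labelled Lingo2 KO highest.

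The library labelled Lingo2 KO was therefore the highest library for 8 of the 10 members, and the library labelled Lingo3 KO for S100a4 and Cd44. In the library labelled Lingo2 KO all 10 members had an interval above 1, where 33.4% of tested genes did, and none below (28.0%), and their median log2 ratio was 0.41 against 0.02 over all tested genes. The ratios of all 10 were above 1 (53.1% of tested genes), also with DESeq2 size factors, upper quartile factors and total counts. With the unscratched parental library as control 9 of the Lingo2 intervals were above 1, and that of Anxa5 included 1. The library labelled Lingo1 KO had 10 of 10 intervals above 1 (33.2% of tested genes) and none below (29.2%), with a median log2 ratio of 0.16 against 0.01. With total counts as the scaling 5 of these 10 Lingo1 intervals stayed above 1 and 7 of 10 ratios did (51.2% of tested genes with TMM factors), and with the unscratched control 9 intervals were above 1 and that of Anxa5 below. In the library labelled Lingo3 KO 4 members had an interval above 1 (36.3% of tested genes) and 3, all annexins, had one below (34.2%), with a median log2 ratio of 0.04. With total counts 5 Lingo3 intervals were below 1, those of S100a6 and S100a10 added, and with the unscratched control 2 were, those of S100a6 and Anxa5. The library labelled TROY KO had 6 above (33.2%) and none below (26.1%), with a median of 0.09. With total counts 5 TROY intervals were above 1 and 5 below, those of S100a10, S100a13, Anxa1, Anxa3 and Anxa5, and with the unscratched control 8 were above and 1, that of Anxa5, below. High counts make the members' intervals narrow, so a larger share of them lies clear of 1 for the same ratio. The members were also chosen with earlier results of these data known, so these shares are a description and not a test.

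With the scratch, 4 members had an interval above 1 (13.6% of tested genes) and 3 below (20.1%), of which S100a6 was not below with any of the 3 other scalings, and the ratios of all 10 lay between 0.857 and 1.11. Anxa1 was at 1.08 (1.06 to 1.10), Anxa5 at 0.922 (0.898 to 0.947) and Anxa2 at 0.956 (0.939 to 0.974). The difference between cultures of the parental line that such steps would have to exceed was not measured. Together the 10 genes took 0.5002% of all counts in the unscratched and 0.517% in the scratched parental library, 0.558% in the library labelled Lingo1 KO, 0.641% in the library labelled Lingo2 KO, 0.516% in the library labelled Lingo3 KO and 0.525% in the library labelled TROY KO. The 95% Clopper-Pearson intervals of these shares reached at most from 0.638% to 0.644%, for the library labelled Lingo2 KO.

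All 5 S100 members lie on chromosome 3, in a stretch that holds S100a13, S100a4 and S100a6 together and another, further along, with S100a11 and S100a10. Within 100 kb of S100a4, 6 other genes passed the expression filter. S100a14, an S100 gene of epithelia, stood at 3.42 CPM in the scratched parental library and was 2.17-fold higher (1.71 to 2.78) in the library labelled Lingo1 KO, 2.63-fold (2.08 to 3.33) in the library labelled Lingo2 KO and 2.28-fold (1.81 to 2.90) in the library labelled Lingo3 KO, with a ratio of 1.90 (1.49 to 2.43) in the library labelled TROY KO. S100a16 had ratios of 1.56, 1.87, 1.53 and 1.14 in the same order. S100a1, S100a13, S100a6 and Chtop, an mRNA export factor, had log2 ratios between -0.25 and 0.45.

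**Figure D4:**
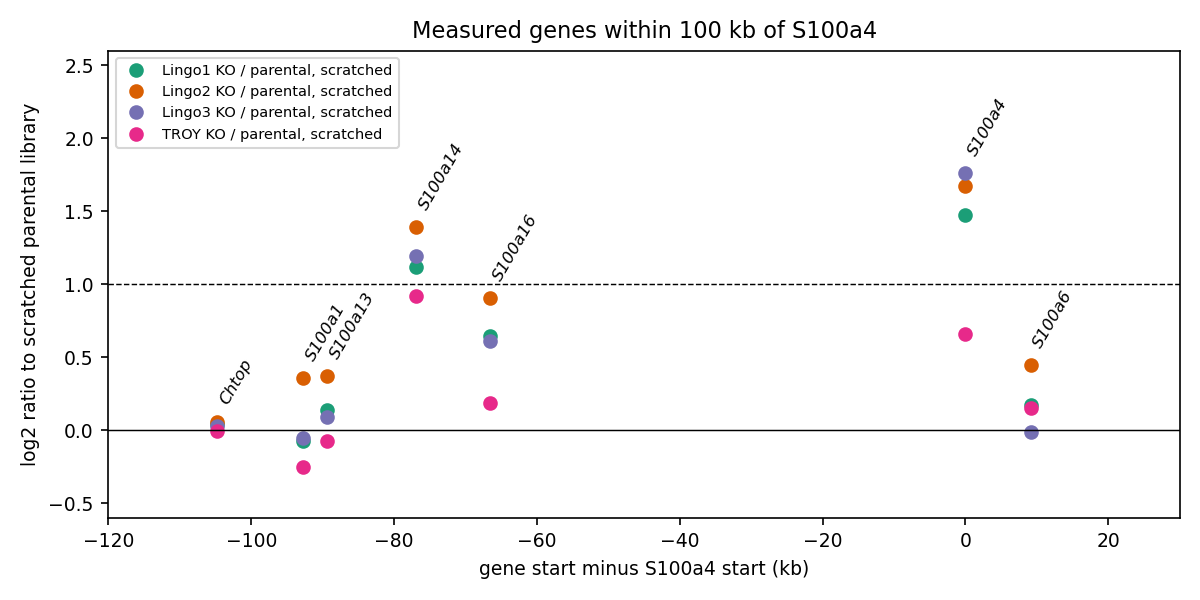
The log2 ratio of each KO-labelled library to the scratched parental library for S100a4 and the 6 measured genes whose bodies lie within 100 kb of it, against the distance of the gene starts in kb. S100a4 and S100a14 reach beyond 1 (dashed line) in the 3 libraries labelled Lingo KO, whereas S100a6, 9.11 kb from S100a4, stays at or below 0.45.

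Of 66 genes within 100 kb of any member, 14 passed the filter. Besides S100a14, the matrix gene Fras1, which lies near Anxa3, passed the size rule, 2.12-fold lower (2.02 to 2.22) in the library labelled Lingo3 KO. In that library 7.19% of all tested genes passed. Ccna2, a cyclin of dividing cells that lies near Anxa5, had the highest mean RPKM of the 14 and ratios of 1.04 to 1.19 in the KO-labelled libraries. The median log2 ratio of the 14 lay between 0.04 and 0.10 in the 4 KO-labelled libraries, against 0.01 to 0.02 over all tested genes.

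Of 12 further S100 genes in the count table, 4 passed the expression filter, and S100a14 was the only 1 of them past the size rule. It passed in the libraries labelled Lingo1, Lingo2 and Lingo3 KO, where 3.62%, 3.5% and 7.19% of tested genes passed. S100a8 and S100a9, the calprotectin genes of neutrophils, had at most 1 count per library. Of 8 further annexins, 6 passed the filter, and Anxa8 passed the size rule in all 4 KO-labelled libraries, which 0.729% of tested genes did upward. Anxa8, an annexin of squamous and other stratified epithelia, stood at 152 and 146 CPM in the unscratched and scratched parental libraries and at 458, 513, 456 and 349 CPM in the libraries labelled Lingo1, Lingo2, Lingo3 and TROY KO. Its ratio was 3.14 (3.04 to 3.25), 3.52 (3.41 to 3.64), 3.13 (3.03 to 3.24) and 2.39 (2.31 to 2.48), larger than that of any of the 4 annexin members. Anxa4 stayed between 1.03 and 1.15. The median log2 ratio of the 6 was 0.44, 0.33, 0.38 and 0.17 in the 4 KO-labelled libraries.

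**Figure D5:**
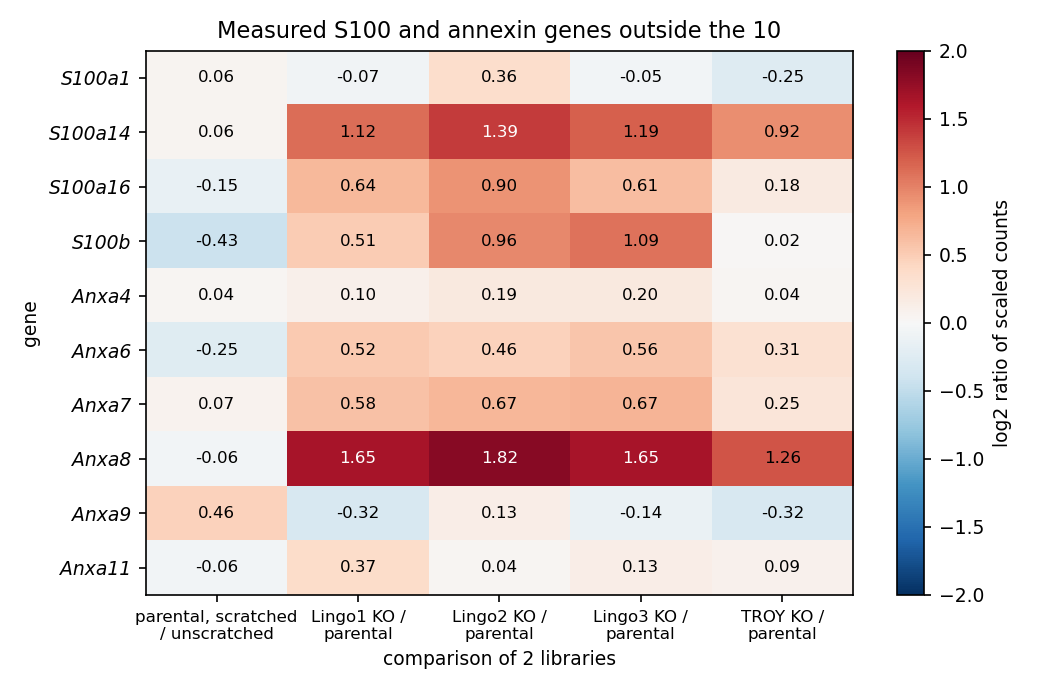
Log2 ratio of scaled counts, as colour and printed value, for the 4 S100 genes and 6 annexins outside the 10 that passed the expression filter, in each of the 5 comparisons. Anxa8 is above 1 in all 4 KO-labelled libraries and S100a14 in the 3 libraries labelled Lingo KO. S100b, at 1.09 in the library labelled Lingo3 KO, rests on 37 and 79 counts and did not pass the size rule.

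Of 31 other genes of membrane repair, 27 passed the filter. Past the size rule were 1 with the scratch, 1 in the library labelled Lingo1 KO, 2 in the library labelled Lingo2 KO, 3 in the library labelled Lingo3 KO and none in the library labelled TROY KO, all higher, where the shares of all tested genes were 0.0828%, 3.62%, 3.5%, 7.19% and 2.24%. Dysf, dysferlin, a muscle protein that docks vesicles at torn membranes, was called in the first 4 of these, with 10 counts in the unscratched and 40 in the scratched parental library and 221, 141, 1312 and 69 in the libraries labelled Lingo1, Lingo2, Lingo3 and TROY KO. Dysf passed the filter on low levels only through the KO-labelled libraries, where it was high, and this holds for its call with the scratch too. Its ratio was 3.77 (1.85 to 8.45) with the scratch, 6.07 (4.32 to 8.72) in the library labelled Lingo1 KO, 3.79 (2.65 to 5.53) in the library labelled Lingo2 KO and 32.7 (23.9 to 46.0) in the library labelled Lingo3 KO. Against the unscratched parental library, where Dysf was lower by the factor of 3.77 given for the scratch, Dysf passed in the library labelled TROY KO as well. Syt7, a calcium sensor of lysosome exocytosis, was 2.26-fold higher (2.12 to 2.42) in the library labelled Lingo2 KO and 5.69-fold (5.36 to 6.03) in the library labelled Lingo3 KO. Fer1l6, a relative of dysferlin, was 2.35-fold higher (1.58 to 3.55) in the library labelled Lingo3 KO. Cav1, the coat protein of caveolae and the most abundant of the list, had ratios of 1.47, 1.52, 1.67 and 1.36 in the libraries labelled Lingo1, Lingo2, Lingo3 and TROY KO, and Cav2 between 1.07 and 1.16. The median log2 ratio of the 27 was 0.23, 0.24, 0.11 and 0.16.

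For Cd44, 17 of 23 genes of hyaluronan, the ERM linkers and CD44 processing passed the filter. Osteopontin, Spp1, a secreted ligand of CD44, passed the size rule in all 4 KO-labelled libraries, which 0.729% of tested genes did upward. It passed the filter on low levels only through those libraries, where it was high. It had 15 counts in the scratched and 20 in the unscratched parental library and 58, 80, 242 and 60 in the libraries labelled Lingo1, Lingo2, Lingo3 and TROY KO, which gave ratios of 4.25 (2.37 to 8.07), 5.74 (3.28 to 10.7), 16.1 (9.57 to 29.2) and 4.04 (2.27 to 7.67). Has3, a hyaluronan synthase, was 2.20-fold lower (1.63 to 3.004) in the library labelled Lingo3 KO, at 2.13 CPM against 4.70 CPM. Has2 had at most 2 counts in any library. The linker moesin, Msn, had ratios of 1.35 to 1.48 in the 4 KO-labelled libraries, and ezrin, Ezr, of 1.08 to 1.201. The median log2 ratio of the 17 was 0.08 in the library labelled Lingo1 KO, -0.04 in the library labelled Lingo2 KO, 0.05 in the library labelled Lingo3 KO and 0.17 in the library labelled TROY KO.

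The genes whose levels ran most like those of S100a4 and Cd44 over the 6 libraries were ranked by the root-mean-square difference of log2 CPM centred on each gene's mean. Compared were other genes that averaged 10 CPM or more and had a count in every library. Genes with Gm, Rik, pseudogene or clone-type symbols were left out, as were those annotated as neither protein-coding nor an RNA type. This left 9088 genes for S100a4 and 9087 for Cd44. Nearest to S100a4 were Hspa12a (0.09 log2 units), Slc12a8 (0.15), Adssl1 (0.15), Cdh13 (0.17) and Nr1d1 (0.20). Hspa12a stood at 5.69 and 4.96 CPM in the unscratched and scratched parental libraries and at 13.6, 13.9, 18.5 and 7.85 CPM in the libraries labelled Lingo1, Lingo2, Lingo3 and TROY KO. Nearest to Cd44 were Tgfa (0.05), Itga6 (0.06), Fdps (0.08), Pcdh1 (0.08) and Hmgcs1 (0.09). Tgfa, a ligand of the EGF receptor, stood at 14.6 and 15.1 CPM in the parental libraries and at 26.9, 28.1, 34.5 and 24.7 CPM in the KO-labelled libraries, and Itga6, the alpha 6 integrin, at 14.2 and 14.4 CPM and at 27.2, 30.04, 37.7 and 26.5 CPM. These nearest genes were picked for their likeness, over 6 libraries that share the same split between parental and KO-labelled lines, and no test was made of it.

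The 6 libraries held between 28109825 and 30776294 counts in genes. Reads assigned to no counted feature made up 7.80% and 8.02% of the reads placed in a gene, in no feature or in several features for the unscratched and scratched parental libraries and 4.98% to 6.41% in the KO-labelled libraries, and the part of this difference in the ratios was not tested.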

How the data were processed

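The authors deposited raw read counts per Ensembl gene and, in a second table, RPKM values with log2 ratios of the 5 comparisons and no p-values. Per the submitters' processing notes the tools were Trimmomatic 0.39, STAR, HTSeq and edgeR on GRCm38; no label gives their settings, order or annotation. Checked against the counts, the deposited RPKM equalled each gene's count times 1 gene factor and 1 library factor (SD 0.000878 log2 units over 9337 genes), and the deposited log2 ratios of the members differed by at most 0.0216 from those computed here.

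TMM factors over all 6 libraries scaled the counts (edgeR 4.0.16, R 4.3.3). Reads in no feature (4.98% to 8.02%) or in several (3.31% to 4.08%) stayed out. Symbols and positions came from GENCODE M21. Ratios have Clopper-Pearson intervals at 95% (scipy 1.17.1), levels Poisson intervals. Both cover counting error only, since 1 library per group gives no spread between cultures. PCR copies cannot be told from separate molecules, so even the counting error may be understated. The floor of 3 counts is 0.0984 to 0.108 CPM. Counts were simulated with Poisson counting error only, with 200 changed genes per comparison and no spread between cultures. Of genes changed 3-fold, the size rule recovered 98.5% in the scratch, Lingo1 and Lingo3 comparisons. It recovered 100% in the Lingo2 and 97.0% in the TROY comparison. Recovery in the presence of differences between cultures was not tested.

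Alternatives were other scalings, filters, a looser rule, the unscratched control, the authors' ratios and other gene lengths. The members and lists were chosen with earlier results of these data known. Named from each list were up to 4 genes past the size rule and the 2 with the highest mean RPKM, and 5 genes most like each of the 2 most variable members. S100b, Esrp2, Has2, S100a8, S100a9 and single markers of cell types were named after their values were seen.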

Additional observations from a re-analysis of the deposited data

How the results depend on the processing

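With 1 library per group, no spread between cultures stands behind any value. No paired analysis was possible because each group has 1 library and the labels carry no replicate numbers. With DESeq2 1.42.0 size factors, upper quartile factors or total counts, no member changed its call, and the ratios moved by at most 1.06-fold. Total counts shifted all KO ratios by -0.07 to -0.08 log2 units, and 6 of the 50 member ratios then crossed 1.

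With a ratio of at least 1.5 and a bound beyond 1.2, 2 members were past the rule in the library labelled Lingo1 KO, 3 in the library labelled Lingo2 KO and 2 in the library labelled TROY KO, and with the unscratched parental library as control 2 were in the library labelled Lingo2 KO, where Cd44 joined S100a4. Over all tested genes the rule called 10 with the scratch and 437, 423, 868 and 270 in the libraries labelled Lingo1, Lingo2, Lingo3 and TROY KO. In that order these became 160, 783, 755, 1487 and 562 with no expression filter, 2, 207, 185, 461 and 118 with a filter at 5 CPM, 57, 1245, 1209, 2161 and 922 with the looser rule, and 129, 825, 812, 1355 and 613 for log2 ratios of at least 1 in size in the authors' deposited table, which has no interval. The 5 wider lists had 1, 4, 5, 8 and 2 genes past the rule in the same order. The looser rule gave 9, 12, 16 and 4 in the KO-labelled libraries, the filter at 5 CPM gave 4 in the library labelled Lingo3 KO and 1 in the library labelled TROY KO, and the authors' deposited table gave 2 with the scratch. These settings change which genes are tested or the rule itself.

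Per kilobase of the GENCODE exon union, an alternative chosen after seeing the data, mean levels were 88.2 times higher for S100a6 than S100a4 (131 in the authors' RPKM), 1.13 for S100a10 over Anxa2 (1.23) and 1.41 for Anxa3 over Anxa2 (1.96).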

Other observations

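Receptors and cytoskeletal partners of S100 proteins formed a further list of 16 genes, of which 14 passed the expression filter. None of these passed the size rule in any of the 5 comparisons. Of all tested genes 0.0828% passed with the scratch, and 3.62%, 3.5%, 7.19% and 2.24% in the libraries labelled Lingo1, Lingo2, Lingo3 and TROY KO. For a list of 14 genes, none is close to these shares. Ager, the RAGE receptor of S100 proteins and a gene of alveolar type I cells, was at 433 CPM in unscratched and 343 CPM in scratched parental cells, a ratio of 0.792 (0.772 to 0.813), and at 438 to 529 CPM in the KO-labelled libraries. Its ratio to the scratched parental library was 1.54 (1.51 to 1.58) in the library labelled Lingo1 KO and 1.28 (1.24 to 1.31) in the library labelled Lingo3 KO. Bsg, basigin, a surface glycoprotein that S100A9 binds, had ratios between 0.954 and 1.14 in the KO-labelled libraries. The median log2 ratio of the 14 was -0.07 with the scratch and 0.12, 0.18, 0.02 and 0.12 in the libraries labelled Lingo1, Lingo2, Lingo3 and TROY KO.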
